A study of Mus musculus with 2 samples.

Results

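The genes described here are the receptor NKG2D, its adapter and the ligands that the receptor recognises. They are 6 of the 22620 genes in the count tables: the ligand genes H60c, H60b, Ulbp1 and Raet1e, the receptor gene Klrk1 and the adapter gene Hcst. They were chosen by symbol, with their UMI counts in cancer cells and in natural killer (NK) and T cells of these same libraries already known, so the levels given for them are a description and carry no test. The counts come from C57BL/6J mice bearing EO771-HEVM3 tumours. For its single-cell libraries the study's text names EO771 tumours and C57BL/6 mice, and does not name HEVM3. Of the 2 single-cell libraries, 1 was made from the primary tumour and 1 from the paired lymph nodes (LNs), and each was pooled from 6 mice with no label that assigns a cell to a mouse. HEVM3 was derived from the murine mammary carcinoma line EO771 through 3 rounds of selection in mice for cells that spread to the lung by way of high endothelial venules (HEVs), the LN vessels through which lymphocytes enter. Both libraries carry the same line, no treatment is given for either, and the tissues were dissociated with different enzymes, so tissue, dissociation and library cannot be told apart.

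NKG2D is an activating receptor of NK cells and of activated CD8+ T cells and gamma delta T cells. It carries no signalling motif of its own and depends on small membrane adapters, DAP10 (the product of Hcst) and, in mice, also DAP12 (the product of Tyrobp). Its ligands are relatives of MHC class I that most healthy cells display sparsely and that transformed, stressed or dividing cells can display in quantity, and a cell that shows them becomes a target of the receptor. H60b and H60c belong to the H60 family, Raet1e and its close relative Raet1d encode proteins of the RAE-1 family, and Ulbp1 encodes MULT-1.

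The primary tumour library held 12427 cells with 173317475 UMIs (unique molecular identifiers, 1 per captured transcript) and a median of 9161 per cell. The LN library held 11617 cells with 122207852 UMIs and a median of 2630. After limits on detected genes and mitochondrial UMIs and removal of predicted doublets, 8756 and 9689 cells were kept. The libraries shared 47 cell barcodes, of which 31 belonged to a kept cell in both, and the kept primary tumour cells with a shared barcode held 3 UMIs of H60c against 0 in those of the LN. Levels are given as CPM, the pooled UMIs of a gene in a class relative to all UMIs of that class, scaled to 1000000, with the 95% exact Poisson interval in brackets. All intervals and floors cover counting error only. With 1 library per tissue there is no replicate and no test, and no interval here describes the spread between mice.

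In GENCODE M21 on GRCm38, the 4 ligand genes lie on chromosome 10: H60c at chr10:3256208-3267771 and Ulbp1 at chr10:7440362-7473638, both on the minus strand, and H60b at chr10:22158586-22288849 and Raet1e at chr10:22158569-22374139, both on the plus strand. Klrk1 lies on the minus strand at chr6:129610323-129623864 and Hcst on the minus strand at chr7:30417712-30419854. Raet1e overlaps its neighbours, sharing 133 exonic bases with H60b and 363 with Raet1d. Of the 50-base runs in the last 500 bases of Raet1e transcripts, 55.1% also occur in Raet1d, so UMIs of Raet1e and Raet1d may have been divided between them or dropped, and both counts are uncertain. For H60c, 16.7% of such runs also occur in the gene models Gm10825 and Gm26581. Runs of Klrk1, Hcst and H60b occurred in no other gene. The symbols of the ligand genes Raet1a, Raet1b, Raet1c, H60a and Ulbp3 were absent from the count tables, so these genes could not be analysed.

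RefSeq promoter windows on GRCm38.p6 matched 5 of the 6 members, with 6 entries, and H60b had none. The windows below are the 250 bases before the start that RefSeq annotates, read 5′ to 3′ on the strand of the gene. That start differs from the outermost GENCODE start for Ulbp1, the second Raet1e entry and Raet1d, so the Ulbp1 window lies partly, and the other two wholly, inside the bounds of the GENCODE gene. They are shown for the ligand and receptor genes whose levels are compared between the tissues, and for Raet1e with Raet1d because their counts are hard to separate. Capitals mark matches, on either strand, to the E2F motif TTCCCGC, the CCAAT box CCAAT, the RUNX motif TGTGGT or the GC box GGGCGG. The AP-1 motif TGANTCA and the TATA box TATAAA were also searched. So were the GAS motif TTCNNNGAA and the interferon-stimulated response element, as a pair of GAAA repeats with 2 bases between them. These motifs matched none of these windows. The Ulbp1 window lies at chr10:7473478-7473727 on the minus strand, the H60c window at chr10:3267772-3268021 on the minus strand and the Klrk1 window at chr6:129623865-129624114 on the minus strand. The windows of the second Raet1e entry, at chr10:22173247-22173496, and of Raet1d, at chr10:22361644-22361893, lie on the plus strand.
Ulbp1: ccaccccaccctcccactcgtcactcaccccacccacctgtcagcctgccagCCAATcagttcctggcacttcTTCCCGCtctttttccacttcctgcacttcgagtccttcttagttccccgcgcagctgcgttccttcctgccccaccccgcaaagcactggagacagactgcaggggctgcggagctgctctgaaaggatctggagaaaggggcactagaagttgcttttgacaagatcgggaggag
H60c: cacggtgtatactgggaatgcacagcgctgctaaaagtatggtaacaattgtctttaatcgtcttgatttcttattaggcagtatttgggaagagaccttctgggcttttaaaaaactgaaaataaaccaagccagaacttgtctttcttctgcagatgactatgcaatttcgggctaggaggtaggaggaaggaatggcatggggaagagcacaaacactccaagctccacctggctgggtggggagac
Klrk1: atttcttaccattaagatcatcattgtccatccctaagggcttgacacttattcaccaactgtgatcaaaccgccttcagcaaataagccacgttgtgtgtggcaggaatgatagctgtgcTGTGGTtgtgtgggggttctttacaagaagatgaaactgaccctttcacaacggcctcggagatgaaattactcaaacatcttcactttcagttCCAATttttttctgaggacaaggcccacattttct
Raet1e, second entry: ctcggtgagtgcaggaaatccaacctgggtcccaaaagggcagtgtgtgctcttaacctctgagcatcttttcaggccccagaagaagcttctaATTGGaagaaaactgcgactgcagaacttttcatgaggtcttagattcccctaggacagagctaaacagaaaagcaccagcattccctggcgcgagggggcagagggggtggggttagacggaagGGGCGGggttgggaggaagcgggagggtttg
Raet1d: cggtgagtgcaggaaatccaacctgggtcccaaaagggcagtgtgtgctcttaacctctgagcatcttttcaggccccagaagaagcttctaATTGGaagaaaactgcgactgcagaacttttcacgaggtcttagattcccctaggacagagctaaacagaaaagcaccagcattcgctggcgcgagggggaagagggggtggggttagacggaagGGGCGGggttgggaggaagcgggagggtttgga

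The Ulbp1 window held the E2F letters, which occur in 3.82% of the 32851 promoter windows of the same length, and a CCAAT box, which occurs in 33.8%. The Klrk1 window held the RUNX letters, present in 14.0% of windows, and a CCAAT box. H60c held none of the 8 motifs. Over their full entries, the second Raet1e window and the Raet1d window had 295 of 298 aligned bases in common, and both held a GC box, present in 32.7% of windows, and a CCAAT box. A match describes letters in the window and is not evidence of a bound factor.

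Cells fell into classes named from marker genes. The primary tumour held 6117 cancer cells, 1369 macrophages or monocytes, 132 T cells and 22 NK cells. It also held 452 cells of a cluster, called cluster 3, whose markers were highest for T cells but whose leading genes, Cxcr6 and Cd8a first, included more NK markers (Klrc2 and Prf1) than T cell markers (Thy1), so that it was left without a class name. The LN held 4635 B cells, 3667 T cells, 609 cancer cells, 194 endothelial cells and 66 NK cells. Krt8 and Krt18, keratins among the marker genes of the cancer class, stood at 1746 and 1548 CPM in the primary tumour and at 1048 and 1790.0 CPM in the LN cancer cells.

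**Figure D1:**
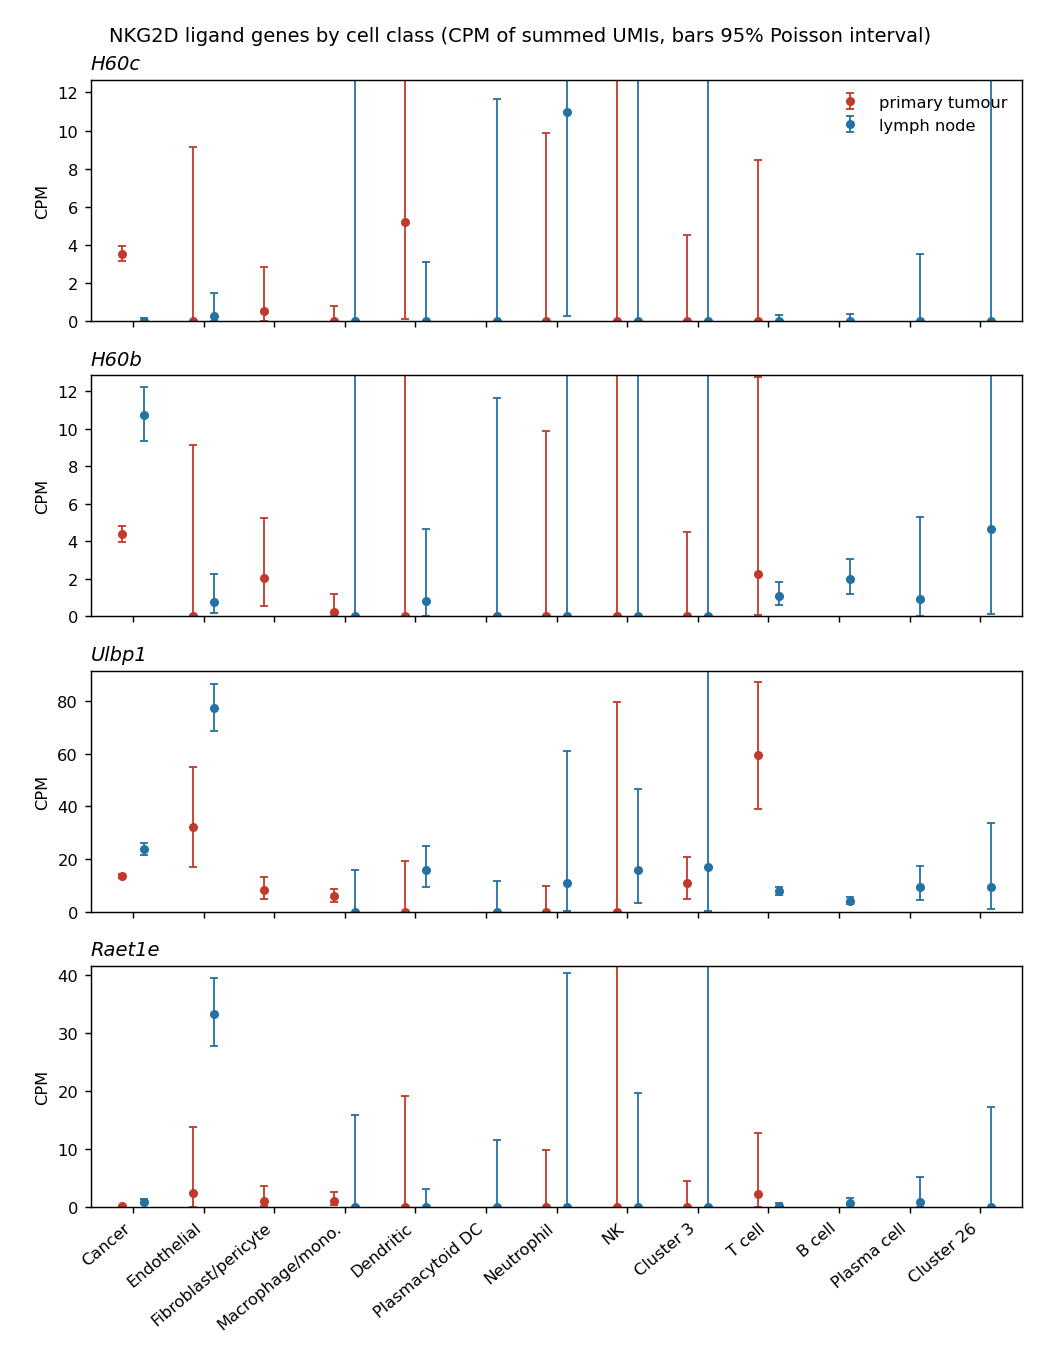
Level of each NKG2D ligand gene in every cell class with at least 20 cells, in CPM, for the primary tumour and the lymph node. Points are summed levels and bars 95% exact Poisson intervals, some of which run past the top of the axes; H60c stood at 3.53 CPM in primary tumour cancer cells and at 0 in LN cancer cells, and Ulbp1 reached 77.1 CPM in LN endothelial cells.

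H60c was found mainly in cancer cells of the primary tumour. It had 343 UMIs in 229 of the 6117 primary tumour cancer cells, 3.53 CPM [3.17 to 3.93], which was 99.4% of its UMIs among all kept cells of that library. The cancer cells held 97089784 of the 105929106 kept UMIs of all genes there, so class size alone gives a high share. Macrophages or monocytes, with 0 UMIs, had an upper limit of 0.805 CPM. Endothelial and T cells also had 0 UMIs, but their upper limits of 9.14 and 8.43 CPM do not set them below the cancer cells. In the LN H60c had 0 UMIs in 609 cancer cells, although these were the deeper cells, with a median of 35044 UMIs against 14062. A count of 0 allows up to 3 UMIs over the LN cancer cells, or 0.147 CPM, and up to 0.493% of cells with a UMI, which sets no limit on the cells that express the gene. Against that floor the level was at least 24.0-fold lower in the LN, a figure that leaves out the counting error of the primary tumour. With the counting error of both libraries, the upper limit of the log2 ratio was -4.28. Among cancer cells, 9.36% of the 10742 genes that reached 100 UMIs in 1 or both libraries were at least 2-fold lower in the LN and 4.62% at least 2-fold higher, and the median log2 ratio was -0.19. Thinned to 1000 UMIs per cell, 0.370% of primary tumour cancer cells had an H60c UMI (3.74% before thinning, with 83 shallower cells left out), while the 1369 macrophages or monocytes of that library, at a median of 2417 UMIs, held none.

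H60c was unevenly spread over the cells that carried it. Of the 229 cells, 161 held 1 UMI, 47 held 2 and 21 held 3 or more, up to 10 in a single cell. Without that cell the level was 3.43 CPM. Its level did not climb with the depth of the cells: with primary tumour cancer cells ranked by depth and divided into 5 equal groups, it was, from the shallowest group to the deepest, 6.22, 2.83, 3.30, 3.31 and 3.63 CPM. Among all other kept cells of both libraries, 4 UMIs were found, 1 in a dendritic cell and 1 in a fibroblast or pericyte of the primary tumour, and 1 in a neutrophil and 1 in an endothelial cell of the LN.

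The cancer cell clusters of the primary tumour differed in H60c. It stood at 5.48 CPM [4.37 to 6.77] in cluster 0 and 5.07 [4.36 to 5.86] in cluster 2, with overlapping intervals. It was lower, with intervals apart from those 2, in cluster 1 at 1.91 [1.42 to 2.53], in cluster 12 at 1.83 [1.12 to 2.83] and in cluster 5 at 0.802 [0.322 to 1.65]. Cluster 1, led by Cenpf and Ube2c, held the most transcripts of 12 cycling genes (3084 CPM in sum), while cluster 2, led by Elf3 and Mt4, held the fewest (213 CPM) and cluster 0, led by Cyp1a1, held 879 CPM. Cluster 11, of 210 shallow cells with a median of 1748 UMIs, held 1 H60c UMI.

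**Figure D2:**
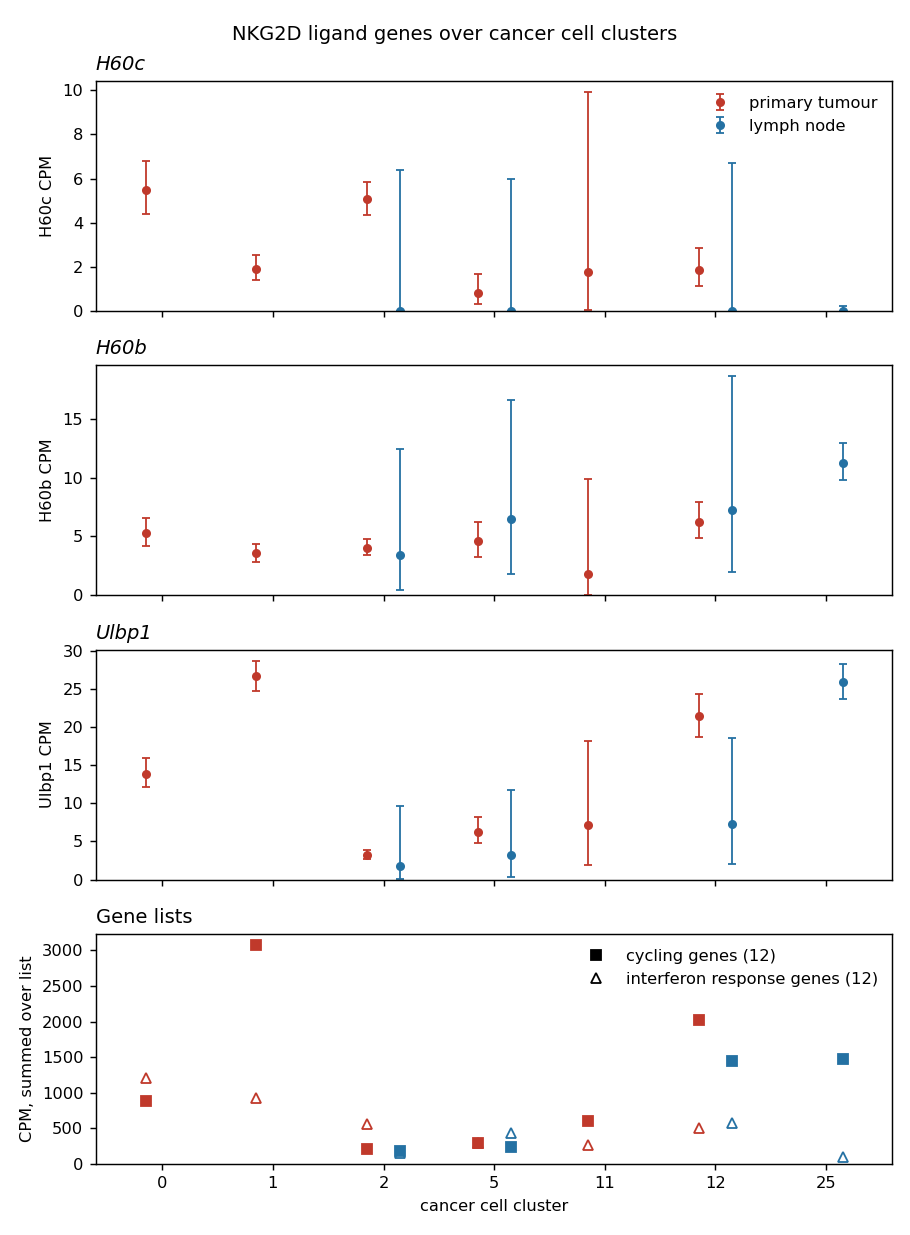
Level of the ligand genes in each cancer cell cluster with at least 20 cells of a library, in CPM with 95% exact Poisson intervals, beside the summed CPM of the cycling and interferon response lists. H60c was highest in primary tumour clusters 0 and 2 (5.48 and 5.07 CPM), Ulbp1 in primary tumour cluster 1 and LN cluster 25 (26.7 and 25.9 CPM), and H60b in LN cluster 25 (11.3 CPM).

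The cancer cells of the tissues lay mostly in different clusters. Of the 609 LN cancer cells, 515 lay in cluster 25, led by Tff2, Krt19 and Id1, which held 3 cells of the primary tumour. Clusters 2, 5 and 12 each held at least 20 cells of both libraries, 78 cells in the LN and 4096 in the primary tumour. Within them, H60c had 0 UMIs in the LN against 208 in the primary tumour, at least 2.19-fold lower against the floor, and the upper limit of the log2 ratio, with the counting error of both libraries, was -0.82. No single one of these clusters had enough LN cells to set a bound below the primary tumour level. Cells without a UMI of Ptprc, Cd3e or Lyz2, which mark immune cells, gave 3.50 CPM in the primary tumour and 0 in the LN.

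H60b was present in cancer cells of both tissues. It had 426 UMIs in 399 primary tumour cancer cells, 4.39 CPM [3.98 to 4.82], and 218 UMIs in 172 LN cancer cells, 10.7 CPM [9.33 to 12.2], a log2 ratio of 1.29 [1.04 to 1.53]. Without cells that had a UMI of Ptprc, Cd3e or Lyz2 the log2 ratio was 1.17, and the part of other cells' RNA was not tested. H60b transcripts were thinly spread in the primary tumour, where 373 of the 399 cells held 1 UMI. Of the kept H60b UMIs, cancer cells held 98.6% in the primary tumour and 84.5% in the LN. Of the kept UMIs of all genes they held 97089784 of 105929106 and 20363899 of 50304475. In the LN the rest were mainly single UMIs in B cells (20, or 1.99 CPM) and T cells (14, or 1.11 CPM). Primary tumour T cells had 2.29 CPM [0.0579 to 12.7] from 1 UMI. Fibroblasts or pericytes there had 2.04 CPM [0.556 to 5.22] from 4 UMIs. Both intervals overlapped that of the cancer cells. Thinned, 0.413% of primary tumour and 1.01% of LN cancer cells had an H60b UMI, against 6.52% and 28.2% before thinning. In primary tumour macrophages or monocytes the thinned share was 0.0250%, from 1 UMI.

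The level of H60b varied less among the clusters of the primary tumour than that of H60c. In the 5 deeper clusters it ranged from 3.56 CPM in cluster 1 to 6.23 CPM in cluster 12, and in LN cluster 25 it was 11.3 CPM [9.79 to 12.9], above all of them. Over clusters 2, 5 and 12, where both libraries had cells, the log2 ratio was 0.40 with an interval from -0.75 to 1.23, from 10 LN and 252 primary tumour UMIs. A difference between the tissues was not detectable at the depth of the shared clusters, whose interval overlapped that over all cancer cells.

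Ulbp1 was the ligand gene found in the widest range of classes. Cancer cells held 1306 UMIs in the primary tumour, 13.5 CPM [12.7 to 14.2] in 972 cells, and 484 in the LN, 23.8 CPM [21.7 to 25.98] in 262 cells, a log2 ratio of 0.82 [0.67 to 0.97]. After subtraction of the median log2 ratio of all genes it was 1.01. In the shared clusters 2, 5 and 12 the direction turned, with 7 LN UMIs against 403 in the primary tumour and a log2 ratio of -0.76 [-2.18 to 0.20]. Only in cluster 12 taken alone was the interval below 0 (-1.39 [-3.45 to -0.18]), with 4 LN UMIs.

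Among the 5 deeper clusters of the primary tumour the order by Ulbp1 was the same as the order by the cycling list. Ulbp1 stood at 26.7 CPM [24.7 to 28.8] in cluster 1, 21.4 [18.8 to 24.4] in cluster 12, 13.9 [12.1 to 15.9] in cluster 0, 6.30 [4.75 to 8.20] in cluster 5 and 3.19 [2.63 to 3.84] in cluster 2, where the cycling genes summed to 3084, 2020, 879, 291 and 213 CPM. LN cluster 25 had 25.9 CPM [23.7 to 28.4] of Ulbp1 at 1477 CPM of cycling genes. These are values of 5 clusters of 1 library, cells of which share depth as well. Over the 5 depth groups of primary tumour cancer cells, shallowest first, Ulbp1 was 5.64, 6.99, 10.3, 15.5 and 16.5 CPM.

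Cells were also separated by a UMI of Mki67, a marker of dividing cells, a comparison added after the cluster values were seen. Primary tumour cancer cells with such a UMI had 22.9 CPM [21.5 to 24.4] of Ulbp1 and those without 5.48 [4.87 to 6.15], at median depths of 22123 and 10777 UMIs. LN cancer cells showed 31.9 [28.8 to 35.2] and 11.4 [9.21 to 14.0], at 36657 and 31517 UMIs. H60c was lower in primary tumour cells with an Mki67 UMI, at 2.05 [1.65 to 2.52] against 4.78 [4.21 to 5.41], and H60b was 4.51 [3.90 to 5.17] against 4.29 [3.75 to 4.89]. LN cancer cells had 11.5 [9.64 to 13.5] and 9.56 CPM [7.54 to 11.9] of H60b. The few UMIs of Raet1e gave 0.248 [0.124 to 0.443] and 0.0949 CPM [0.0308 to 0.221] in the primary tumour and 1.06 [0.562 to 1.81] and 0.497 [0.135 to 1.27] in the LN, with overlapping intervals in each tissue. The part of depth in these values was not tested.

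Outside the cancer cells, LN endothelial cells held 297 UMIs of Ulbp1 in 81 of 194 cells, 77.1 CPM [68.6 to 86.4]. Primary tumour T cells, with 26 UMIs in 132 cells, stood at 59.4 CPM [38.8 to 87.1], an overlapping interval, so the order of these classes is not set. At the coarser clustering resolution of 0.5 the T cell value was 29.9 CPM, from 6 UMIs, and the endothelial value was the same. The study also sorted LN blood endothelial cells for sequencing in parallel, and whether this library holds any of them is not stated. Primary tumour endothelial cells had 13 UMIs, 32.2 CPM [17.2 to 55.1], in 52 cells. Transcripts of 6 cancer cell genes, 4312 CPM in LN cancer cells, stood at 141 CPM in LN endothelial cells and at 793 CPM in those of the primary tumour. Ulbp1 was 3.25 times as high in endothelial as in cancer cells of the LN, where these transcripts were at 3.27% of their cancer cell level, and 2.39 times as high in the primary tumour, where they were at 20.7%. Their part in the Ulbp1 values was not tested. Thinned, 5.45% of LN endothelial cells had a Ulbp1 UMI (41.8% before thinning, median depth 16177 UMIs), against 0.287% of LN B cells (0.798%, median depth 1802).

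By gene markers of high endothelial cells (HECs), the cells that line HEVs, the LN endothelial cells formed 3 groups. Glycam1 encodes a ligand of L-selectin, and Chst4 and Fut7 encode enzymes that modify such ligands. The 47 cells with UMIs of at least 2 of these genes had 100 CPM of Ulbp1 [83.9 to 118], the 28 with 1 had 104 [80.8 to 131] and the 119 with none had 50.4 [40.6 to 61.8]. The cells with none were also shallower, with a median of 8787 UMIs against 29965 in the first group. Endothelial cells with and without an Mki67 UMI had 86.9 [76.3 to 98.5] and 51.3 [38.5 to 66.9], at median depths of 29965 and 5586 UMIs, and without 1 cell the second value was 40.1.

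Raet1e was mainly an endothelial transcript of the LN. It had 128 UMIs in 63 LN endothelial cells, 33.2 CPM [27.7 to 39.5], which was 81.5% of its UMIs in kept LN cells. The 3 groups by HEC genes had overlapping intervals, at 28.9 [20.6 to 39.5], 34.1 [21.6 to 51.1] and 36.2 CPM [28.0 to 46.0]. Raet1d followed it, with 62 UMIs and 16.1 CPM [12.3 to 20.6] in the same class, and the runs shared by both genes leave their split uncertain. Primary tumour endothelial cells held 1 UMI of Raet1e, 2.48 CPM with an interval up to 13.8.

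In cancer cells Raet1e was scarce. It had 16 UMIs in the primary tumour, 0.165 CPM [0.0942 to 0.268], and 17 in the LN, 0.835 CPM [0.486 to 1.34], a log2 ratio of 2.34 [1.27 to 3.42], and all 17 LN UMIs lay in cluster 25. LN endothelial cells held 33.2 CPM of Raet1e, and the part of other cells' RNA in the LN cancer cell value was not tested. The count of Raet1d was 4 in the primary tumour against 10 in the LN, and neither gene reached the 100 UMIs set for the gene-wide shares. In the shared clusters 2, 5 and 12 Raet1e had 0 UMIs in the LN and 5 in the primary tumour, too few to give a direction.

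A UMI of at least 1 of the 4 ligand genes was found in 23.7% of the 6117 primary tumour cancer cells and 57.1% of the 609 LN cancer cells, and UMIs of 2 or more in 157 and 99 cells. These shares were not thinned, and the LN cancer cells were the deeper ones. Among primary tumour cancer cells, H60b was found in 10.9% of the 229 cells with H60c and in 6.35% of the others, whose median depths were 21281 and 13791 UMIs. Ulbp1 was found in 18.8% and 15.8%.

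Of the 5 ligand genes in the tables, 3 reached 100 UMIs in cancer cells, and all 3 are members: H60c was lower by at least 2-fold in the LN, H60b higher and Ulbp1 within 2-fold. For the lists that follow, the gene-wide shares in cancer cells were 9.36% lower and 4.62% higher. Of 5 genes for shedding and turnover of ligands, 1 was lower, 1 higher and 3 within 2-fold, with a median log2 ratio of -0.10. Mmp14, a membrane protease, stood at 115 CPM in the primary tumour and 56.4 in the LN, and Marchf9, a ubiquitin ligase known to act on MULT-1, at 8.58 and 17.4 CPM. Adam10, a protease that releases membrane proteins, was at 89.8 and 45.2 CPM, a log2 ratio of -0.99. All 9 regulators of ligand genes were within 2-fold, with E2f1, which drives entry into DNA synthesis, at 33.0 and 54.8 CPM.

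Of 6 genes for other ligands of NK cells on tumour cells, 1 was lower and 5 within 2-fold. That gene was Icam1, an adhesion molecule, at 46.3 CPM in the primary tumour and 19.4 in the LN (log2 ratio -1.25 [-1.40 to -1.10]), while Pvr, which binds the receptor CD226, was at 49.8 and 34.0. All 10 interferon response genes with enough UMIs were lower in LN cancer cells, with a median log2 ratio of -2.29, down to -5.66 for Gbp2. The other 2 genes of that list had fewer than 100 UMIs and were higher in the LN, Ifit3 at 0.835 [0.486 to 1.34] against 0.196 CPM [0.118 to 0.306] and Mx1 at 1.67 [1.16 to 2.33] against 0.690 [0.535 to 0.876]. All 12 cycling genes were within 2-fold, with a median of 0.13. Among the 5 deeper clusters of the primary tumour, the interferon list gave the order of the H60c levels except that clusters 1 and 2 changed places. It summed to 1211 CPM in cluster 0, 925 in cluster 1, 554 in cluster 2, 506 in cluster 12 and 294 in cluster 5. A link between the list and H60c was not tested.

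**Figure D3:**
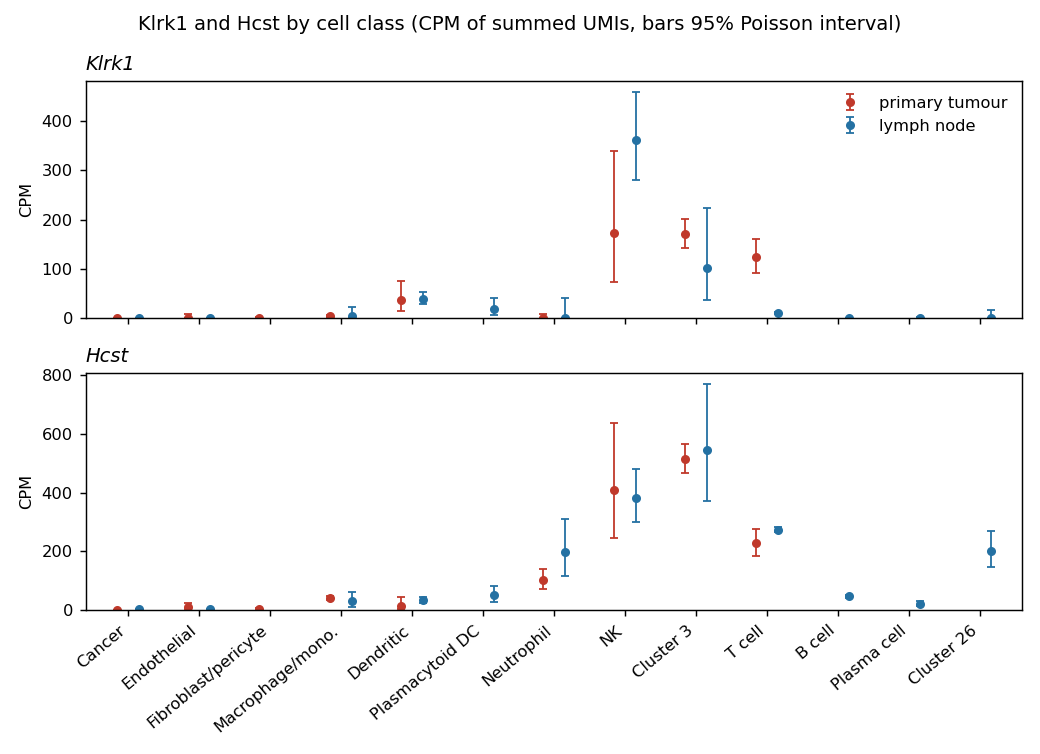
Level of Klrk1 and Hcst in every cell class with at least 20 cells, in CPM with 95% exact Poisson intervals, for both libraries. Klrk1 stood at 361 CPM in LN NK cells and 11.2 CPM in LN T cells, and in the primary tumour at 172 CPM in NK cells and 170 CPM in cluster 3 with overlapping intervals, whereas UMIs of Hcst were also found in neutrophils and B cells.

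Among LN classes, Klrk1, the receptor gene, was highest in NK cells. They held 68 UMIs in 39 of 66 cells, 361 CPM [280 to 458], and primary tumour NK cells held 8 UMIs in 7 of 22 cells, 172 CPM [74.4 to 340], a log2 ratio of 0.99 with an interval from 0.01 to 2.34. No NK class of at least 20 cells formed under 4 other settings of the processing. Gated instead on a UMI of Ncr1 or Klrb1c, genes of NK cell receptors, and on none of Cd3d, Cd3e, Cd3g or Trac, 23 LN cells had 386 CPM [250 to 570] and 21 primary tumour cells had 234 [128 to 393], and these intervals overlapped. A UMI of a CD3 gene or Trac was present in 27 of the 66 LN cells of the NK cluster and in 1 of 22 in the primary tumour. Of the genes with at least 100 UMIs in NK cells, 11.9% of 243 were at least 2-fold higher in the LN and 2.88% at least 2-fold lower, and Klrk1 had too few UMIs to be among them. The intervals of primary tumour NK cells and of cluster 3, at 170 CPM [143 to 201], overlapped, so their order is not set.

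T cells differed in Klrk1 between the tissues. Among cells of the T cell marker clusters, cluster 3 included, a CD8 gate took cells with a UMI of Cd8a or Cd8b1 and none of Cd4 or Trdc. The 342 primary tumour cells in it held 160 Klrk1 UMIs, 189 CPM [161 to 220], and the 1278 LN cells held 42, 7.95 CPM [5.73 to 10.7], a log2 ratio of -4.56 [-5.10 to -4.07]. Among genes with at least 100 UMIs in these cells, 17.1% of 4912 were at least 2-fold lower in the LN and 7.63% at least 2-fold higher. Thinned, 16.6% of primary tumour and 0.675% of LN CD8-gated cells had a Klrk1 UMI (29.5% and 1.88% before thinning, at median depths of 1890 and 3723 UMIs, with 36 and 1 cells left out). In LN B cells, which should lack the gene, the thinned share was 0.00112% at a median depth of 1802 UMIs, and in primary tumour cancer cells it was 0.0200% at 14062.

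The CD8-gated cells came from different clusters in the tissues. In the primary tumour 287 of 342 were in cluster 3 and 47 in cluster 15, and in the LN 1098 of 1278 were in cluster 7, which held 3 cells of the primary tumour. The comparison is therefore between largely different groups of CD8+ cells. Without cells that had a Krt8 or Krt18 UMI the levels were 180 and 8.70 CPM. Haemoglobin transcripts stood at 2390 CPM in the primary tumour gate, all of them in 41 of its cells, and at 266 CPM in the LN gate, where 1387 of 1406 UMIs lay in 1 cell. Without the cells that had a haemoglobin UMI, a comparison added after these values were seen, Klrk1 was 186 CPM [156 to 220] in 301 primary tumour cells and 7.70 [5.50 to 10.5] in 1259 LN cells. With each library clustered on its own, the gate held 372 primary tumour cells at 115 CPM and 1293 LN cells at 8.04 CPM. The primary tumour gate then held 177 Klrk1 UMIs against 160, so its lower level came with a larger total of UMIs.

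**Figure D4:**
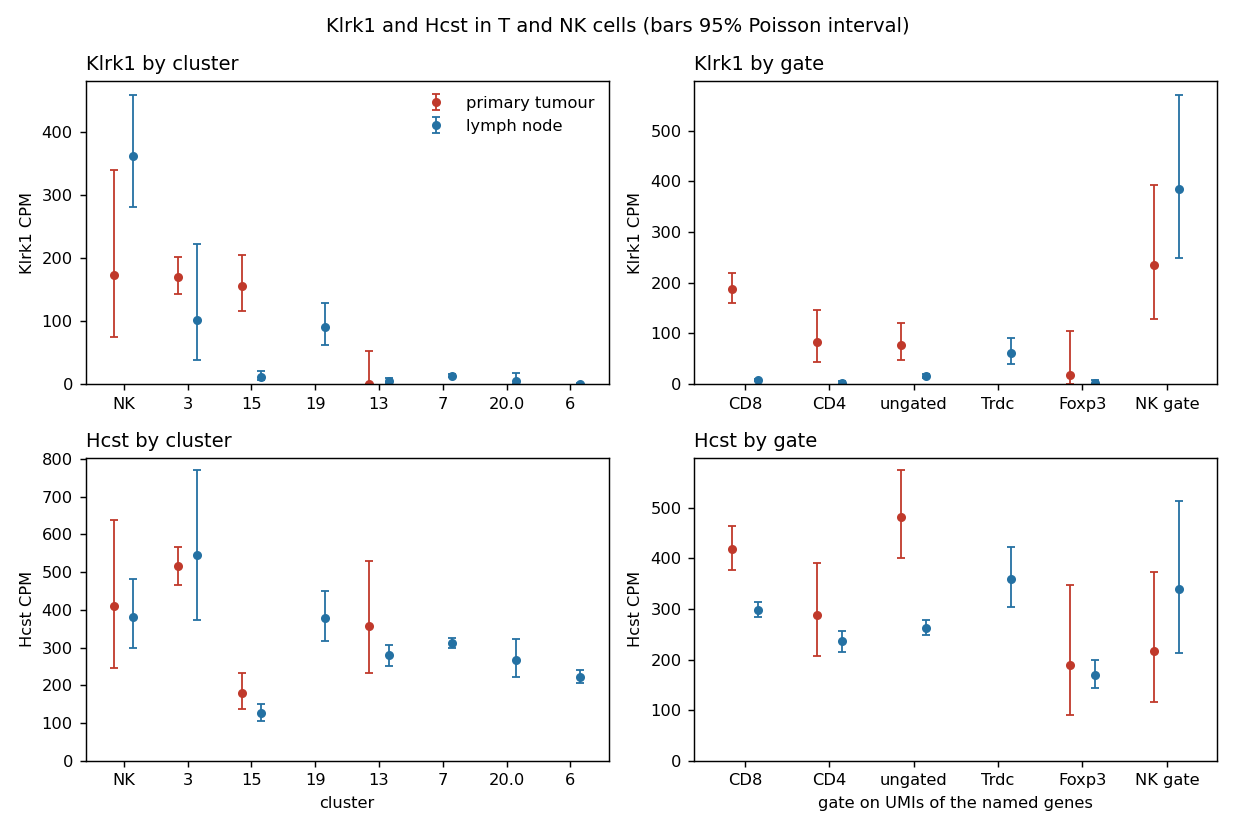
Level of Klrk1 and Hcst in the T and NK marker clusters with at least 20 cells of a library, in CPM with 95% exact Poisson intervals. In cluster 15, which both libraries shared, Klrk1 was 156 CPM in the primary tumour and 11.96 CPM in the LN, while Hcst was 181 and 126 CPM.

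Clusters 3, 13 and 15 held at least 20 T cell marker cells of both libraries. In cluster 15, led by histone genes and Stmn1 as in dividing cells, Klrk1 had 50 UMIs in 61 primary tumour cells, 156 CPM [116 to 205], and 11 in 81 LN cells, 11.96 CPM [5.97 to 21.4], a log2 ratio of -3.65 [-4.79 to -2.74]. The makeup of this cluster also differed, with 878 CPM of the CD8 genes and 0 of Foxp3 in the primary tumour against 220 and 68.5 CPM in the LN, and its median depths were 4253 and 10356 UMIs. In cluster 3 Klrk1 was 170 CPM [143 to 201] in 452 primary tumour cells and 102 [37.5 to 223] in 21 LN cells, intervals that overlap. Cluster 13, led by Tnfrsf4 and Foxp3 as in regulatory T cells, had 0 UMIs in 43 primary tumour and 7 in 427 LN cells, 4.93 CPM [1.98 to 10.2]. The upper limit of the primary tumour value was 52.9 CPM, so the tissues cannot be ordered there.

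Other T cell groups were compared within each tissue. In the LN, the 109 cells of cluster 19, with Trdc at 339 CPM, had 91.3 CPM of Klrk1 [62.4 to 129], and cells gated on Trdc, a gene of the gamma delta T cell receptor, had 62.0 [40.1 to 91.5], so that the intervals of these largely shared groups overlapped. The 1642 LN cells that the gates left out held 76 Klrk1 UMIs, 15.7 CPM [12.4 to 19.6]. CD8-gated LN cells followed at 7.95 and CD4-gated cells at 2.28 [0.740 to 5.32]. Cluster 6, with Cd4 at 161 CPM, had 0.672 [0.0814 to 2.43], which overlapped the CD4-gated cells. In the primary tumour, CD4-gated cells had 84.1 CPM [43.5 to 147] and the 180 cells that the gates left out 77.7 [47.5 to 120], both below the interval of the CD8-gated cells. With each library clustered on its own, the CD4-gated cells had 71.4 [36.9 to 125] and the CD8-gated cells 115 [98.8 to 133], so that order was lost. The Trdc gate held 4 cells, too few for a level. Within the CD8 gate, cells with and without an Mki67 UMI had overlapping intervals in each tissue, 167 [120 to 226] and 198 CPM [164 to 236] in the primary tumour and 9.79 [2.67 to 25.1] and 7.80 [5.52 to 10.7] in the LN.

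Hcst, the DAP10 gene, had a flatter and wider distribution. In CD8-gated cells it was 419 CPM [376 to 465] in the primary tumour and 298 [283 to 313] in the LN, a log2 ratio of -0.49 [-0.66 to -0.32], within 2-fold. With each library clustered on its own the direction turned, at 257 CPM [232 to 284] in the primary tumour and 297 [282 to 311] in the LN. The primary tumour gate then held 372 cells with 395 Hcst UMIs, against 342 cells with 355 in the main clustering. The count rose, so the lower level came with a larger total of UMIs in the gate. In NK cells Hcst was 409 [246 to 639] and 382 [299 to 481], and by the gate on Ncr1 or Klrb1c it was 218 [116 to 372] and 340 [213 to 514], so the order turned there too, with overlapping intervals each time. Cluster 3 had 515 [467 to 567] and 546 [373 to 770], which overlapped as well. Primary tumour neutrophils had 102 CPM [72.0 to 140] and LN neutrophils 197 [117 to 312], macrophages or monocytes 40.6 and 30.1, and LN B cells 47.0 [42.9 to 51.5]. T cell markers summed to 145 CPM in primary tumour neutrophils and 230 CPM in LN neutrophils. They summed to 209 CPM in LN B cells, against 4766 CPM in LN T cells. The part of T cell RNA in these Hcst values was not tested. Cancer cells held 0.845 CPM of Hcst in the primary tumour and 3.24 in the LN.

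UMIs of the adapter and receptor genes were also counted per cell in the CD8 gate, without thinning. In the LN an Hcst UMI was found in 828 of the 1278 cells and a Klrk1 UMI in 24, of which 22 had both, so Hcst was found in 91.7% of cells with Klrk1 and 64.3% of the rest, at median depths of 4715.5 and 3702.5 UMIs. A cell without a UMI may still express the gene, and 9.36% of LN B cells had an Hcst UMI at a median depth of 1802. In the primary tumour 204 of 342 had Hcst and 101 Klrk1, with 61 having both, and Hcst was found in 60.4% of cells with Klrk1 (median depth 2264 UMIs) and 59.3% of the rest (1762). Tyrobp, the DAP12 gene, was within 2-fold in NK cells at a log2 ratio of 0.96.

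The lists of genes around the receptor differed between the CD8-gated cells of the tissues. Of 10 signalling genes with at least 100 UMIs, 6 were at least 2-fold lower in the LN and 4 within 2-fold, with a median log2 ratio of -1.22. Lcp2, the adapter SLP-76, was at 206 CPM in the primary tumour and 28.6 in the LN, and Zap70, a kinase of T cell receptor signalling, at 196 and 54.3 CPM, whereas Grb2, an adapter that DAP10 recruits, was at 172 and 103. All 7 cytotoxic effector genes were lower in the LN, with a median of -4.11. Prf1 (perforin) was at 402 and 23.3 CPM and Gzmb (granzyme B) at 580 and 18.0. All 5 other receptor genes were lower too, from Cd96 at -1.06 to Klrc1, a subunit of the inhibitory receptor NKG2A, at -5.48.

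Within the clusters that both libraries shared, these lists gave other counts. In cluster 3, which held most of the gate in the primary tumour but 21 cells in the LN, 1 of 7 effector genes was at least 2-fold higher in the LN and 6 were within 2-fold, with a median log2 ratio of 0.22. Of its 7 signalling genes 4 were lower and 3 within 2-fold, with a median of -1.08, and of its 4 other receptor genes 1 was lower and 3 within 2-fold. Over all genes of that cluster 14.0% were lower and 3.07% higher. In cluster 15 all 4 effector genes were lower, with a median of -3.03, as were both other receptor genes, while 1 of 5 signalling genes was lower and 4 within 2-fold, with a median of 0.26, against 5.29% of all genes lower and 9.20% higher. In cluster 13 all 7 signalling genes were within 2-fold, with a median of -0.16, against 9.77% and 13.2%.

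Of 5 genes for cytokine regulation of the receptor in CD8-gated cells, 2 were lower and 3 within 2-fold. The counts were 0 and 4 in cluster 3, with a median log2 ratio of 0.13, 1 and 2 in cluster 15, and 2 and 3 in cluster 13. Il2rb, a receptor subunit for IL-2 and IL-15, cytokines known to sustain NKG2D, was at 1439 CPM in the primary tumour and 254 in the LN. Tgfb1, whose product is known to lower NKG2D, was at 282 and 101 CPM, and Il2rg was at 178 and 185. The gene-wide shares given above for CD8-gated cells apply to these counts as well, and the cluster makeup of the gate differs as described.

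Klrk1 was also found in dendritic cells, at 40.1 CPM [29.6 to 53.2] in the LN (48 UMIs in 30 of 195 cells) and 36.5 [14.7 to 75.2] in the primary tumour (7 UMIs in 43 cells). With predicted doublets kept, the LN class held 63 cells and 31 UMIs, at 76.2 CPM [51.8 to 108]. Without 1 cell the primary tumour value was 21.2 CPM. T cell markers summed to 370 CPM and NK cell markers to 36.5 CPM in the primary tumour dendritic cells, in a tissue whose T and NK cells held 123 and 172 CPM of Klrk1. In the LN dendritic cells T cell markers summed to 200 CPM, against 4766 CPM in LN T cells, where Klrk1 was 11.2 CPM. NK cell markers summed to 6.68 CPM there, against 5844 CPM in LN NK cells. The part of other cells' RNA in these values was not tested. Plasmacytoid dendritic cells of the LN had 18.9 CPM [6.95 to 41.2].

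Over the 21 combinations of class and library with at least 20 cells, the gene most like Klrk1 in log2(CPM + 1) was Xcl1, a chemokine of NK and CD8+ T cells (Pearson r = 0.94), followed by Klri2, Klre1, Klrd1 and Klrc1. Those 4 are genes of NK cell lectin-like receptors. The closest to Hcst was Dennd1c (r = 0.94). Among ligand genes it was Nlrp1b for H60c (r = 0.87), Otop2 for H60b (r = 0.86), Haus5 for Ulbp1 (r = 0.82), and Exoc3l (r = 0.98) and Ccl21a (r = 0.90) for Raet1e. These values describe 21 points that share 2 libraries, and with few UMIs per point they weigh little for H60c and H60b.

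**Figure D5:**
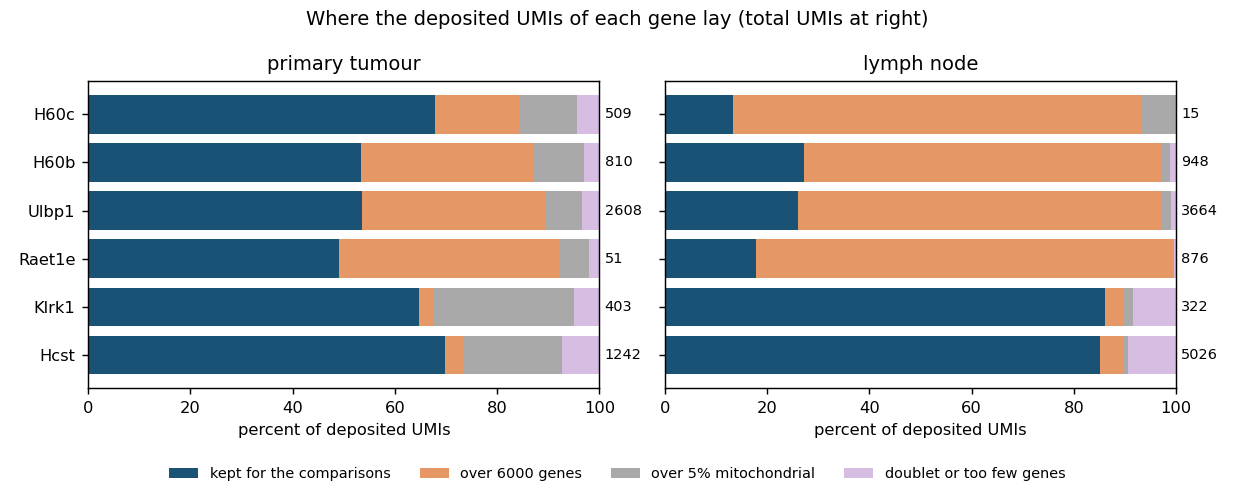
Share of the UMIs of each member that lay in kept cells, in cells over 6000 detected genes, in cells over the mitochondrial limit and in predicted doublets or shallow cells, for each library. In the LN, 81.6% of the UMIs of Raet1e and 71.2% of those of Ulbp1 lay in cells over 6000 genes.

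Many ligand UMIs lay in cells over 6000 detected genes, which the limits removed. In the LN these cells held 664 of 948 H60b UMIs (70.0%), 2608 of 3664 for Ulbp1 (71.2%) and 715 of 876 for Raet1e (81.6%), against 12 of 322 for Klrk1 (3.73%). Clustered without the upper limit, 721 LN cells over it fell in the cancer class, with 7 H60c UMIs, 0.145 CPM [0.0583 to 0.299], H60b at 12.1 CPM and Ulbp1 at 32.7 CPM. The 721 such cells of the primary tumour had 66 H60c UMIs, 1.77 CPM [1.37 to 2.26]. The low level of H60c in LN cancer cells therefore held in these cells too, at a count above 0.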

How the data were processed

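For 2 single-cell 3′ libraries the authors deposited raw UMI counts (whole numbers, not normalised). The file headers name Cell Ranger 5.0.0 and the submitters' processing notes Cell Ranger 2.1.1 with GRCm38. The study's reporting summary gives a further version, and which of them made the counts is not known. The study's methods give annotation GRCm38.91, Seurat and limits on cells: over 200 but not over 6000 detected genes, with no more than 5% of UMIs mitochondrial. Cells beyond these limits were still in the files.

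Those limits were applied here. Scrublet, run per library (scanpy 1.11.5, expected rate 6%), gave doublet scores. The automatic threshold removed 391 primary tumour cells. In the LN it marked 0 of 10305, under the 0.5% taken as failure, so the 616 highest scores were removed. After log transformation of counts scaled to 10000 in each cell, the members and all listed genes were left out of the variable genes (2000 per library), and both libraries were clustered together without integration (30 components, 15 neighbours, Leiden resolution 1.0, igraph 0.11.9). The study's DoubletFinder, Harmony and inferCNV were not run, so copy number played no part in naming cancer cells. Cluster names came from fixed markers by the mean log2 ratio of marker CPM (10 CPM added) over the 25th percentile of clusters, with at least 3 raised markers. Those with more markers of another class among their 10 leading genes stayed unnamed, and classes under 20 cells were not described.

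CPM are UMIs summed per class. Log2 ratios are LN over primary tumour with 0.5 UMI added, with the exact interval of the split of the counts. For a count of 0 the limit was 3 UMIs in a library. Shares of cells are expected shares after thinning to 1000 UMIs. The formulas were tested on simulated data. No test was run, since each tissue has 1 library. The members, marker lists and gene lists were chosen with earlier results of these data known. Named genes are the members, the genes of the lists, and for each member with at least 100 UMIs the 5 genes most correlated in log2(CPM + 1) over classes, among genes reaching 5 CPM. Annotation was GENCODE M21, whose gene identifiers matched those of the files for all 6 members.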

Additional observations from a re-analysis of the deposited data

Results flagged for a closer look

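The comparisons left out cells beyond the limits and predicted doublets, and every member had UMIs in those cells. In the primary tumour the removed cells held 164 UMIs of H60c, 378 of H60b, 1211 of Ulbp1, 26 of Raet1e, 142 of Klrk1 and 376 of Hcst. In the LN they held 13 of H60c, 690 of H60b, 2706 of Ulbp1, 719 of Raet1e, 45 of Klrk1 and 749 of Hcst. For H60b, Ulbp1 and Raet1e in the LN this was more than the kept cells held, which was 258, 958 and 157 UMIs. Of the 15 H60c UMIs of the whole LN library, 12 lay in cells over 6000 detected genes. Clustered without that limit, LN endothelial cells over it (200 cells) had 61.1 CPM of Ulbp1 and 39.6 CPM of Raet1e, next to 77.1 and 33.2 CPM in the kept endothelial cells. Whether cells over 6000 genes are single cells was not tested.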

How the results depend on the processing

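Of the values for the main comparisons recomputed under other settings, 75 stayed within the counting interval of the reported value, 6 moved outside it and 1 reversed; of those for other results, 89 stayed and 40 moved (shares of genes were held to a factor of 1.5). With no upper limit on detected genes, H60c in primary tumour cancer cells was 3.04 CPM instead of 3.53. With only the clusters that held at least 20 cells of both libraries, an alternative chosen after seeing the data, the log2 ratio of H60b was 0.40 instead of 1.29 and that of Ulbp1 reversed to -0.76 from 0.82; this leaves 78 LN cells. Less the median of all genes, the Ulbp1 ratio was 1.01. Klrk1 in CD8-gated cells of the primary tumour was 115 CPM with each library clustered on its own and 154 CPM for all T cell marker clusters without a gate, instead of 189, and in the LN 11.6 CPM without a gate instead of 7.95 (the cause was not tested). Hcst in the same gate of the primary tumour was 257 CPM with separate clustering instead of 419, below the 297 CPM of the LN, and by the NK gate it was 218 CPM instead of 409. With separate clustering the CD8 gate of the primary tumour held more cells and more UMIs of both genes. H60c in LN cancer cells stayed at 0 in every alternative but that without the upper gene limit, where 7 UMIs gave 0.103 CPM. NK cells could not be given a level with a mitochondrial limit of 10%, with no upper gene limit, with separate clustering or at resolution 0.5, since no NK class of 20 cells was formed in these, nor in the primary tumour without cells with a Krt8 or Krt18 UMI. Thinned shares scale with the depth chosen. No paired analysis was possible because each tissue has 1 library and no label assigns cells to mice. Klrk1 in LN dendritic cells was 76.2 CPM with doublets kept instead of 40.1. A floor of 3 UMIs was 64.6 CPM in primary tumour NK cells, 51.1 CPM in LN cluster 3 and 0.147 CPM in LN cancer cells.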

Other observations

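Ulbp1 in T cells was concentrated in cluster 15 of the primary tumour, the T cell cluster led by histone genes. Its 61 cells held 26 of the 35 UMIs of the T and NK marker clusters of that library with at least 20 cells, 81.0 CPM [52.9 to 119] in 19 cells, with Mki67 at 710 CPM. The 81 LN cells of the same cluster held 12 UMIs, 13.04 CPM [6.74 to 22.8], with Mki67 at 442 CPM. In primary tumour cluster 3, with Mki67 at 31.8 CPM, Ulbp1 was 11.01 CPM [5.03 to 20.9]. Krt8 and Krt18 together stood at 134 CPM in cluster 15 and 274 CPM in cluster 3 of the primary tumour, and at 22.8 CPM in cluster 15 of the LN. Whether cancer cell transcripts take part in these Ulbp1 values was not tested. LN B cells with an Mki67 UMI had 20.04 CPM of Ulbp1 [11.7 to 32.1] and those without 2.72 [1.76 to 4.01], at median depths of 4806 and 1797 UMIs. These groups were chosen after the values were seen, and the part of depth was not tested.

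Klrk1 was unevenly spread over LN dendritic cells, by gates also chosen after the values were seen. The 28 cells with a UMI of Xcr1, a chemokine receptor of cross-presenting dendritic cells, had 73.4 CPM [46.5 to 110] and the 167 without had 28.3 [18.3 to 41.8], at median depths of 11198.5 and 5222 UMIs. The 111 cells with a UMI of Fscn1, a gene of migratory dendritic cells, had 11.996 CPM [4.82 to 24.7] and the 84 without had 66.8 [48.0 to 90.7], at 4855 and 6218 UMIs.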
